A study of Camponotus floridanus with 3 samples.

Results

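The features described here are the transcripts that were abundant in every library of a study of whole bodies of the Florida carpenter ant, Camponotus floridanus. They were selected on their deposited RPKM values: each is a numbered feature (an ID of Cflo_ and 5 digits, so not tRNA, rRNA, snRNA or mir) that reached at least 100 RPKM in the queen and in both workers. RPKM counts reads relative to the length of the feature and to all reads of its library. The rule gave 148 features of 16701 numbered features and of 17323 features in all. Because the levels in all 3 libraries chose them, those levels are given as a description, and nothing below tests that they are abundant.

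The libraries came from 1 queen and 2 workers, each a whole body frozen and sequenced as poly(A) RNA with strand kept by dUTP. All ants came untreated from laboratory colonies with a queen, at 25 °C in 12 hours of light and 12 of dark, and no strain, genotype or age is given in the labels. The workers were 1 major and 1 minor, the large and small worker bodies of this ant, but the labels do not say which is which, so they are called worker 1 and worker 2 by their replicate numbers. In whole bodies, fewer cells of a type and less RNA per cell cannot be told apart. The read totals recovered from the steps of the RPKM values were 16914235 in the queen, against 6688533 in worker 1 and 13773937 in worker 2. Their scale rests on an assumed range of tRNA lengths.

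In an ant colony the queen lays the eggs, while workers nurse, forage and defend. A poly(A) library of a whole insect is usually filled in large part by few transcripts, such as those of ribosomal proteins, of the respiratory chain and energy metabolism, of muscle fibres and of secreted or cuticular proteins. RPKM values are shares of a library, so a gain in some features lowers the share left for all others. RefSeq's genes of assembly Cflo_v7.5 included 0 of the deposited IDs, so the features are named by ID and no role is given to any of them, and caste was not checked against marker genes.

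Of the RPKM sum, the 148 features held 22.6% in the queen, against 64.2% in worker 1 and 43.1% in worker 2. As a share of numbered features only, they made up 25.3% in the queen, against 76.2% in worker 1 and 47.2% in worker 2. These are shares of summed RPKM, not of reads. Reads were recovered for 124 members, those with a recovered length. Of the reads recovered over tested features, theirs were 5.83% in the queen, against 27.3% in worker 1 and 12.2% in worker 2. Of each library's read total, these reads were 2.99% in the queen, against 4.50% in worker 1 and 4.34% in worker 2. Recovered features held 8687645 reads in the queen, against 1099885 in worker 1 and 4905688 in worker 2. Members without a length, mostly high ones, are left out of both shares. The members' median level lay closer together, at 272 RPKM in the queen, against 382 (worker 1) and 368 RPKM (worker 2). The range was 100.1 to 6141 RPKM in the queen, 102 to 59501 RPKM in worker 1 and 102 to 17301 RPKM in worker 2. At least 1000 RPKM was reached by 15 of them in the queen, against 31 in worker 1 and 22 in worker 2.

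The top of the list differed most. The 10 highest of the 148 held 46.6% of the set's sum in the queen, against 75.03% in worker 1 and 57.9% in worker 2. It took 13 features to reach 50% of the set's sum in the queen, against 4 in worker 1 and 8 in worker 2. A run of 9 consecutive ID numbers, Cflo_13844 to Cflo_13852, accounted for 7.07% of the whole RPKM sum in the queen, against 43.5% in worker 1 and 19.9% in worker 2. The other 139 features made up 15.6% in the queen, against 20.8% in worker 1 and 23.2% in worker 2, a narrower span than that of the run. Of the sum outside the run they held 16.7% in the queen, against 36.7% in worker 1 and 28.9% in worker 2. What lay outside the 148 features summed to 293903 RPKM in the queen, against 197403 RPKM in worker 1 and 232516 RPKM in worker 2. Worker 1 also had the fewest reads, and the median level of all tested features was 15.8 RPKM in the queen, against 1.42 in worker 1 and 7.31 in worker 2. The part of depth in these shares was not tested.

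**Figure D1:**
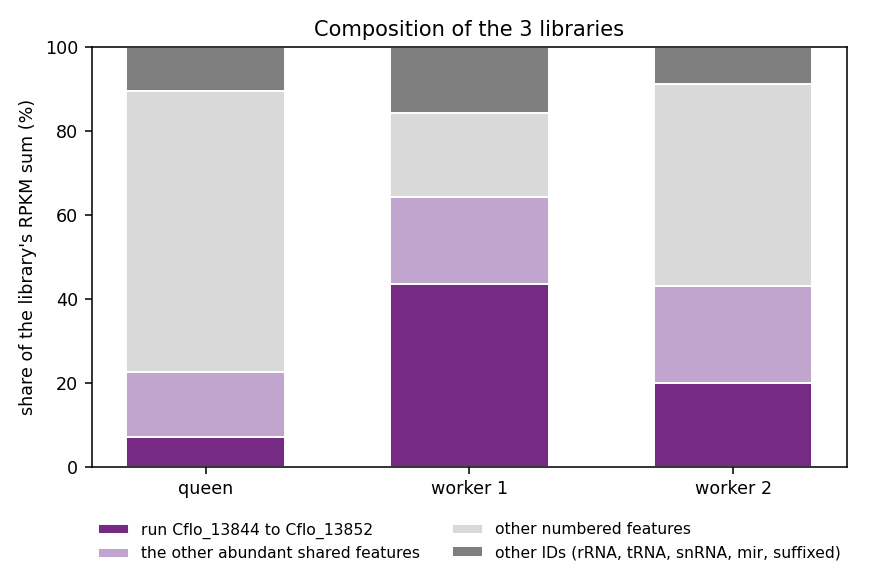
Share of each library's RPKM sum (vertical axis, percent) in the queen, worker 1 and worker 2, split into the run Cflo_13844 to Cflo_13852, the other 139 abundant shared features, other numbered features and all remaining IDs. The run takes 7.07% in the queen, against 43.5% in worker 1 and 19.9% in worker 2, while the other 139 features take 15.6%, 20.8% and 23.2% of the same libraries.

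The minimum was met with different ease in the libraries. In the queen 453 numbered features reached 100 RPKM, in worker 1 279 and in worker 2 390, so the 148 were 32.7% of the queen's abundant features, 53.0% of worker 1's and 37.9% of worker 2's. Of 153 that reached it in the queen and in worker 1, 5 missed it in worker 2. Among those shared by the queen and worker 2, 57 of 205 missed it in worker 1, and among those shared by both workers 83 of 231 missed it in the queen. A further 243 numbered features reached the minimum in the queen alone, 43 in worker 1 alone and 102 in worker 2 alone. Of classes outside the rule, 6 of 38 rRNA features and 2 of 28 snRNA features were also at 100 RPKM or more in all 3 libraries, and 0 of 457 tRNA and 0 of 96 mir features were.

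The edge of the set was close to its neighbours outside. Cflo_10261 was just inside, at 100.1 RPKM in the queen, against 337 in worker 1 and 258 in worker 2. Cflo_06580 was inside by its value in worker 2, at 125 RPKM in the queen, against 136 in worker 1 and 102 in worker 2, and Cflo_08892 by its value in worker 1, at 295 RPKM in the queen, against 102 in worker 1 and 411 in worker 2. Each of these 3 was lowest in a different library. Cflo_04904 stayed just outside at 116 RPKM in the queen, against 140.1 in worker 1 and 99.7 in worker 2. Cflo_07794 was kept out by worker 1, at 270 RPKM in the queen, against 98.3 in worker 1 and 246 in worker 2, and Cflo_04564 by the queen, at 98.0 RPKM in the queen, against 1149 in worker 1 and 932 in worker 2. In all, 13 of the 148 had a lowest value under 110 RPKM, and 15 numbered features had one from 90 to 100 RPKM.

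The most abundant features by geometric mean were led by the run of 9. Cflo_13851 was at 5680 RPKM in the queen, against 59501 in worker 1 and 15508 in worker 2. Cflo_13846 was at 4791 RPKM in the queen, against 51473 in worker 1 and 17301 in worker 2, and Cflo_13844 at 6030 RPKM in the queen, against 35142 in worker 1 and 15719 in worker 2. Each was highest in worker 1 and lowest in the queen, and the workers differed from each other by 3.84-fold, 2.98-fold and 2.24-fold. Cflo_13845, at 4539 RPKM in the queen, against 39782 in worker 1 and 12364 in worker 2, and Cflo_13848, at 2202 RPKM in the queen, against 32109 in worker 1 and 7843 in worker 2, had the same order of libraries. So did Cflo_13847, at 1975 RPKM in the queen, against 11784 in worker 1 and 6845 in worker 2.

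Outside the run, Cflo_13302 had the same order, at 1430 RPKM in the queen, against 22743 in worker 1 and 5311 in worker 2. Cflo_15057 was likewise lowest in the queen, at 733 RPKM, against 4454 in worker 1 and 3814 in worker 2, with the workers only 1.17-fold apart. Both of the remaining features among the 10 most abundant broke the pattern. Cflo_13243 was nearly level, at 5093 RPKM in the queen, against 4861 in worker 1 and 6247 in worker 2. Cflo_13241 was the highest of all 16701 numbered features in the queen, at 6141 RPKM, against 2306 RPKM in worker 1 and 5265 RPKM in worker 2, where it ranked 24 and 12 among numbered features.

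**Figure D2:**
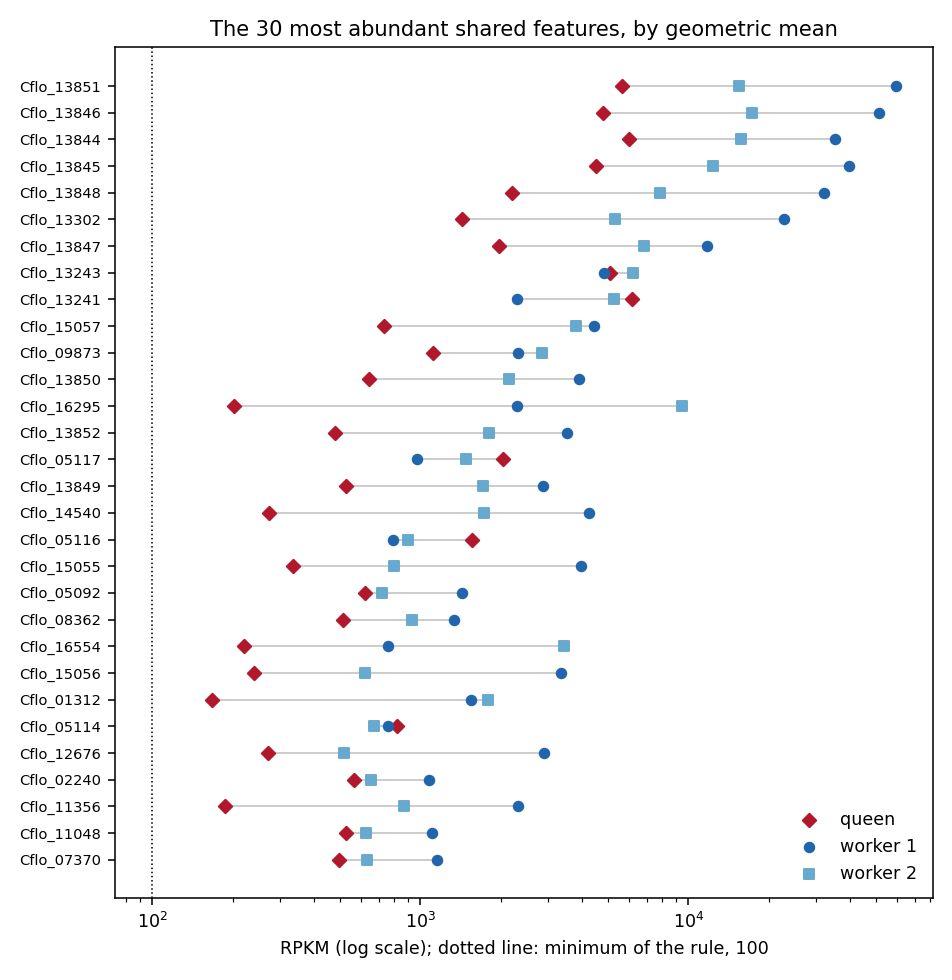
Level in RPKM (horizontal axis, log scale) of the 30 most abundant shared features by geometric mean, with a diamond for the queen, a circle for worker 1 and a square for worker 2; grey lines join the lowest and the highest library. The run Cflo_13844 to Cflo_13852 is lowest in the queen and highest in worker 1 for each of its 9 features, Cflo_13243 lies between 4861 and 6247 RPKM in all 3 libraries, and Cflo_16295 reaches from 202 RPKM in the queen to 9465 RPKM in worker 2.

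Of each library's 10 highest numbered features, 8 were among the 148 in the queen, against 9 in worker 1 and 8 in worker 2. Of the 50 highest, 33 were in the queen, against 41 in worker 1 and 33 in worker 2. The 3 libraries had 6 features in common among their 10 highest numbered features, 19 among their 50 highest and 34 among their 100 highest. The workers alone had 7, 33 and 65 in common at these depths of the list, while the queen had 6, 21 and 40 in common with worker 1 and 6, 21 and 46 with worker 2.

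By rank correlation the order of levels within the set was closest between the workers, but by the median move of rank the queen and worker 2 were as close. Across the 148 features Spearman's rho was 0.25 between the queen and worker 1, 0.54 between the queen and worker 2 and 0.71 between the workers. Among the 9452 tested features that were not in the set (mean of at least 1 RPKM) it was 0.45, 0.44 and 0.77 for the same pairs. Without the run of 9 the values in the set were 0.11, 0.46 and 0.66. These correlations are across features, which are not independent, and the minimum of 100 RPKM cuts off the low end of all libraries. The points of each pair also share a feature length, and no test is given. The median feature moved 26.5 places between the queen's order and worker 1's, 15 places between the queen's and worker 2's and 16 places between the workers'. Only 23 of the 148 stood within 10 places of their rank in both workers. In the queen's order 60 stood higher than in both workers' orders, 54 lower, and 34 did neither.

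The features that stood far higher in the queen's order were of middle rank in the workers or lower. Cflo_11314 ranked 15 of 148 in the queen, against 145 in worker 1 and 129 in worker 2, with 1002 RPKM in the queen against 105 RPKM in worker 1 and 199 RPKM in worker 2. Cflo_01300 ranked 44 in the queen, against 141 in worker 1 and 147 in worker 2. Cflo_09122 ranked 26 in the queen, against 131 in worker 1 and 122 in worker 2, and Cflo_05630 ranked 18, 102 and 97 in the same order. The largest losses of place in the queen were wider still. Cflo_01894 ranked 145 in the queen, against 22 in worker 1 and 27 in worker 2, and Cflo_01312 ranked 126, 24 and 18. Cflo_00875 ranked 138 in the queen, against 15 in worker 1 and 40 in worker 2, and Cflo_11356 ranked 117, 18 and 25.

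The set was divided at round bounds by the ratio of the highest to the lowest library. Of the 148 features, 38 stayed within 1.5-fold, another 36 within 2-fold, 35 lay between 2-fold and 4-fold, 22 between 4-fold and 10-fold, and 17 at 10-fold or more. The median ratio was 2.02. These ratios hold for values as deposited. After median-of-ratios scaling, which makes the typical tested feature equal between libraries, 4 stayed within 2-fold and the median ratio was 13.0. Its factors were 2.55 (queen), 0.290 (worker 1) and 1.27 (worker 2).

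The steadiest features were picked for the smallest ratio on deposited values, so their near equality is a description. Cflo_08839 was at 220 RPKM in the queen, against 232 in worker 1 and 231 in worker 2, on the basis of 2893, 1206 and 2475 recovered reads. The ratio of the queen to worker 1 was 0.949 (95% exact interval 0.887 to 1.02) and to worker 2 0.952 (0.902 to 1.00), intervals that cover counting error only. After median-of-ratios scaling the same feature was at 86.2 in the queen, against 799 in worker 1 and 182 in worker 2. Cflo_11024 was at 215 RPKM in the queen, against 228 in worker 1 and 227 in worker 2. As deposited, both had nearly equal values in the workers and a slightly lower one in the queen. Cflo_09086 was at 257 RPKM in the queen, against 265 in worker 1 and 291 in worker 2, and Cflo_06003 at 402 RPKM in the queen, against 388 in worker 1 and 355 in worker 2. The 38 features within 1.5-fold had geometric means from 109 to 5368 RPKM with a median of 268 RPKM, and none came from the run of 9 (0 of 38). Of these 38, the queen was above both workers in 7, between them in 15 and below both in 16.

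The 17 features that spread by 10-fold or more were each lowest in the queen, with worker 1 highest in 12 and worker 2 highest in 5. Their geometric means had a median of 794 RPKM, against 268 RPKM for the 38 steady ones. Since every library had to reach 100 RPKM, a wide spread needs high values, so the rule sets part of this gap. Cflo_16295 spread most, by 46.9-fold, and was at 202 RPKM in the queen, against 2301 in worker 1 and 9465 in worker 2. Cflo_16330 followed, by 35.3-fold, at 112 RPKM in the queen, against 517 in worker 1 and 3946 in worker 2. Cflo_00875 was at 116 RPKM in the queen, against 2953 in worker 1 and 562 in worker 2. Worker 2 was thus the highest library for the first pair and worker 1 for the third.

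The comparison of castes asked how the abundant transcripts of the queen compare with those of workers. On the log2(RPKM + 1) scale the queen minus the workers' mean had a median of -0.39 over the 148 features, with quartiles of -1.02 and 0.09. Over all 9600 tested features it was 1.60, so on deposited values the typical tested feature read higher in the queen and the typical abundant shared feature read lower. Against worker 1 alone the median of the 148 was -0.54, beside 2.35 over all tested features. Against worker 2 alone it was -0.25, beside 0.89. After median-of-ratios scaling the median of the 148 was -2.45, beside -0.00095 over all tested features. After quantile normalization it was -0.20, beside 0.10, and against worker 2 alone it was -0.0057, with 73 features above 0 and 74 below.

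The queen was below both workers in 84 of the 148 features, above both in 28 and between them in 36. Over all 9600 tested features the queen was below both workers in 11.8% and above both in 68.8%. The minimum of 100 RPKM in every library bounds these counts. Among the 176 other numbered features with a mean as high as the lowest mean in the set, the queen was below both workers in 49.4% and above both in 34.1%, where the set had 56.8% and 18.9%. At 2-fold the order turned, with the queen below both workers in 20.9% of the set and in 41.5% of those 176. After quantile normalization the set was also lower, at 43.2% against 52.3% with no margin and 16.2% against 48.9% at 2-fold. After median-of-ratios scaling the set was higher, at 94.6% against 73.3% with no margin and 70.9% against 61.4% at 2-fold. After rescaling without the 20 most abundant features it was higher with no margin, at 82.4% against 52.3%, and lower at 2-fold, at 27.7% against 48.3%. Beside those 176, the set's place therefore depended on the margin and the scale. Each of the 176 missed the rule, so it was under 100 RPKM in some library while its mean was high. The rule thus favours wide spreads among them, and only the lowest mean was matched, so these contrasts are a description. At a margin of 2-fold, the queen was below both workers in 31 of the 148 and above both in 8, against 6.5% and 49.2% of all tested features. After scaling, 140 of the 148 were below both workers and 2 above, with 38% and 40.9% of all tested features, so the split of the set moved further the same way. At 2-fold it was 105 below and 0 above, with 22.2% and 20.7% of all tested features. After quantile normalization 64 of the 148 were below both workers and 40 above, with 37% and 44.1% of all tested features, and at 2-fold 24 were below and 14 above, with 20.4% and 22.9%. After rescaling without the 20 most abundant features 122 were below and 13 above, with 17.2% and 61.8%, and at 2-fold 41 were below and 3 above, with 9.47% and 40.6%. With no margin, the share below both workers was larger in the set than over all tested features under each of these 4 scales. At 2-fold it was smaller in the set after quantile normalization, at 16.2% against 20.4%, and larger under the other 3. The most frequent order of the libraries was worker 1 above worker 2 above the queen, in 68 features, and the least frequent was the queen above worker 1 above worker 2, in 8.

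**Figure D3:**
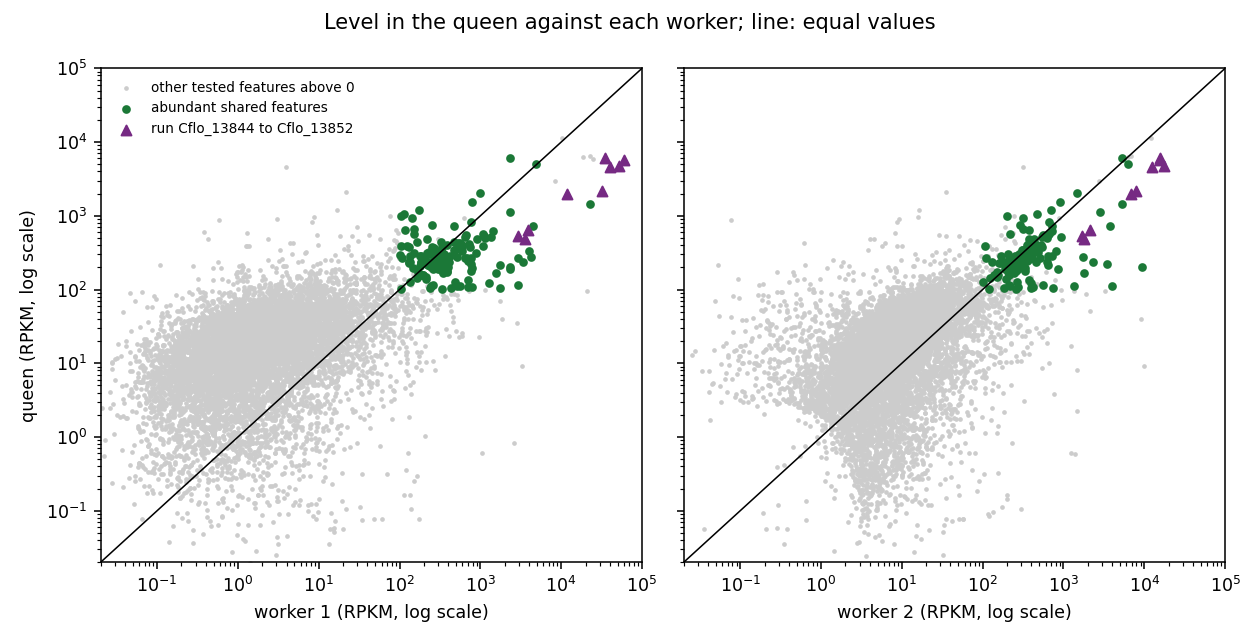
Level in the queen (vertical axes, RPKM, log scale) against worker 1 (left) and worker 2 (right), both in RPKM on log axes from 0.02; grey dots are other tested features above 0, green dots the abundant shared features and purple triangles the run of 9, with a line of equal values. Most grey dots lie above the line, while 101 of the 148 abundant shared features lie below it against worker 1 and 103 against worker 2.

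In the limma test across all 9600 features, 1 of the 148 passed an adjusted p of 0.05, beside 0.354% of all tested features (0.167% higher and 0.188% lower in the queen). The feature was Cflo_16295, which fell to 202 RPKM in the queen, where the workers averaged 5883 ± 5065 RPKM (SD, n = 2). Its difference was -4.52 ± 1.18 (SE) on the log2(RPKM + 1) scale, with a limma adjusted p of 0.042. The workers themselves were 4.11-fold apart in this feature, and the SE, which limma pooled over features of like level, does not hold that spread. The recovered reads were 1157 in the queen, against 5218 in worker 1 and 44195 in worker 2. The call ended after median-of-ratios scaling (adjusted p 0.46, difference -6.59 ± 3.66), and over its alternatives with a test the limma adjusted p ran from 0.022 to 0.56. At an unadjusted p of 0.05 limma gave 20 of the 148, with 2 higher and 18 lower in the queen, beside 7.05% of all tested features, and after scaling it gave 0 of the 148, beside 13.9%. The queen was a single library, so the test leaves 1 residual degree of freedom, from the workers, which were of different types. In this fit the prior degrees of freedom were infinite, so a feature's own spread between the workers had no weight. The test rests on the workers' spread pooled over features of like level. Nothing says whether the ants came from the same colony.

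Among features below both workers in the queen, Cflo_01312 was at 167 RPKM in the queen, against 1545 in worker 1 and 1796 in worker 2. The workers were within 1.16-fold of each other and the queen was 9.25-fold below the nearer one. Its difference was -3.31 ± 1.13 (SE), and the limma adjusted p was 0.34. Cflo_01894 was at 104 RPKM in the queen, against 1770 in worker 1 and 749 in worker 2, and Cflo_14540 at 272 RPKM in the queen, against 4263 in worker 1 and 1722 in worker 2. Their differences were -3.46 and -3.31, with limma adjusted p of 0.28 and 0.34. Both were higher in worker 1 than in worker 2, and the next pair was the reverse. Cflo_10346, at 111 RPKM in the queen, against 558 in worker 1 and 1342 in worker 2, and Cflo_16554, at 219 RPKM in the queen, against 757 in worker 1 and 3440 in worker 2, had differences of -5.01 and -4.94 after scaling. Cflo_11356 was at 187 RPKM in the queen, against 2318 in worker 1 and 867 in worker 2. In each of these the queen's value lay outside the workers' range.

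Among features above both workers in the queen, the 4 furthest lay 2.60-fold to 5.02-fold from the nearer worker, and the 4 furthest below lay 6.33-fold to 11.4-fold from it. Cflo_11314, at 1002 RPKM in the queen, was 9.51-fold above worker 1 and 5.02-fold above worker 2, where limma gave a difference of 2.78 ± 1.13 (SE) at an adjusted p of 0.44. It was the only 1 of the 148 that lay at least 4-fold above both workers, where 9 lay at least 4-fold below both. The shares at the same margins over all tested features were 25.4% above and 3.75% below. Cflo_11499 was at 947 RPKM in the queen, against 142 in worker 1 and 316 in worker 2. Cflo_01300 was at 393 RPKM in the queen, against 123 in worker 1 and 106 in worker 2, on the basis of 9337, 1152 and 2054 reads. Its ratio of the queen to worker 1 was 3.21 (95% exact interval 3.01 to 3.41) and to worker 2 3.70 (3.53 to 3.88). The workers agree here to within 1.15-fold. Cflo_05630 was at 749 RPKM in the queen, against 255 in worker 1 and 288 in worker 2, and Cflo_09122 at 567 RPKM in the queen, against 151 in worker 1 and 221 in worker 2. Cflo_08691 was at 1073 RPKM in the queen, against 112 in worker 1 and 475 in worker 2. After scaling the difference of Cflo_01300, Cflo_05630 and Cflo_09122 turned below 0, at -0.29, -0.61 and -0.44, while that of Cflo_11314, Cflo_11499 and Cflo_08691 was 0.71, 0.09 and 0.14. Cflo_16295, which passed the limma test, was not among these named features above both workers, and the lowest limma adjusted p among them was that of Cflo_11314.

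Most features of the set were close between the workers on deposited values and far apart after scaling. As deposited, 106 of the 148 features were within 2-fold, 23 were at least 2-fold higher in worker 1 and 19 at least 2-fold lower. Over all 9600 tested features 1681 were within 2-fold, 345 at least 2-fold higher and 7646 at least 2-fold lower in worker 1, and a feature at 0 in both workers is counted on both sides. The median difference of worker 1 minus worker 2 was 0.21 on the log2(RPKM + 1) scale in the set, with 93 features above 0, and -1.49 over all tested features. After median-of-ratios scaling it was 2.33 in the set, with quartiles of 1.75 and 2.88, and -0.08 over all tested features. Then 145 of the 148 were above 0, beside 45.9% of all tested features. The scaling factors, 0.290 for worker 1 and 1.27 for worker 2, raise worker 1 against worker 2 in every feature. With 1 library of each, and the types in unknown order, there is no test.

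A few features set the workers far apart. Cflo_12676 was 5.58-fold higher in worker 1, at 2888 RPKM, than in worker 2, at 518 RPKM, with 271 RPKM in the queen. Cflo_15056 was 5.42-fold higher in worker 1, at 3363 RPKM, than in worker 2, at 620 RPKM, with 240 RPKM in the queen. In both of these the queen was nearer to worker 2. The opposite held for Cflo_14288, at 307 RPKM in worker 1 and 2342 RPKM in worker 2, and for Cflo_16330, at 517 RPKM in worker 1 and 3946 RPKM in worker 2. In Cflo_14288 the queen, at 235 RPKM, was within 1.31-fold of worker 1. Features at least 4-fold above both other libraries numbered 1 in the queen, against 6 in worker 1 and 4 in worker 2. Over all tested features these shares were 25.4% in the queen, against 0.448% in worker 1 and 7.71% in worker 2.

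The ID numbers of the set held 5 runs of consecutive numbers with 19 features in all, 12.8% of the set. Numbered IDs ran from 1 to 16714 and 0.886% of them were in the set, while 9.46% of the set were followed by a number that was also in it. This rested partly on the run of 9, which supplies all but 6 of the 14 neighbouring pairs. The remaining runs were 2 of 2 numbers and 2 of 3 numbers. The sources used here give no coordinates for these IDs, so whether consecutive numbers lie next to each other in the genome was not tested. Over the whole set the median step between numbers was 61, and each block of 1000 numbers held between 4 and 15 features.

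The run of 9 ended sharply on both sides. Cflo_13843 and Cflo_13853, its neighbours by number, were listed at 0 in all 3 libraries. Within it, each feature was below both workers in the queen (9 of 9). The level was 5.43 to 14.6 times the queen's in worker 1 and 2.61 to 3.76 times the queen's in worker 2, so the ratio to worker 2 varied less among the 9. Its 3 lower features were Cflo_13850, at 643 RPKM in the queen, against 3906 in worker 1 and 2136 in worker 2, Cflo_13849, at 531 RPKM in the queen, against 2881 in worker 1 and 1712 in worker 2, and Cflo_13852, at 481 RPKM in the queen, against 3520 in worker 1 and 1810 in worker 2. In these the ratio of worker 1 to worker 2 was 1.68 to 1.94, smaller than the 2.24 to 4.09 of the 5 highest features of the run. The remaining feature, Cflo_13847, had a ratio of 1.72 at a higher level, 11784 RPKM in worker 1 and 6845 RPKM in worker 2. Reads shared among overlapping or near-identical features could not be checked, and no feature length was recovered for the run (0 of 9).

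The shorter runs did not all go the same way. Cflo_15055 to Cflo_15057 were 3 features below both workers in the queen, with differences from -2.59 to -2.41 on the log2 scale. Cflo_15055 was at 336 RPKM in the queen, against 3995 in worker 1 and 798 in worker 2, and together with Cflo_15056 it was far higher in worker 1 than in worker 2, while Cflo_15057 was nearly level between the workers. Cflo_05116 and Cflo_05117 were above both workers in the queen. Cflo_05116 was at 1560 RPKM in the queen, against 794 in worker 1 and 904 in worker 2, and Cflo_05117 at 2043 RPKM in the queen, against 976 in worker 1 and 1487 in worker 2. After median-of-ratios scaling the median difference of this pair turned to -1.25. The number between this pair and Cflo_05114, Cflo_05115, was at 24.02 RPKM in the queen, against 3.41 in worker 1 and 7.31 in worker 2, and Cflo_05114 itself was at 816 RPKM in the queen, against 757 in worker 1 and 671 in worker 2. Abundant features here thus stood on both sides of one that was not abundant.

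In Cflo_08856 to Cflo_08858 the queen was between the workers in 2 features and above both in 1. Cflo_08857, the highest of the 3 by geometric mean, was at 434 RPKM in the queen, against 322 in worker 1 and 422 in worker 2. In worker 2 Cflo_08856 was higher, at 463 RPKM. The length recovered for Cflo_08857 was 26 bases, with 191 reads in the queen, against 56 in worker 1 and 151 in worker 2. A recovered length can be a divisor of the true one, and the reads would then be too few by the same factor. On these reads its ratio of the queen to worker 1 was 1.35 with a 95% exact interval of 0.997 to 1.85. Cflo_07172 was at 255 RPKM in the queen, against 204 in worker 1 and 298 in worker 2, and Cflo_07173 at 174 RPKM in the queen, against 346 in worker 1 and 234 in worker 2. Of the 14 neighbouring pairs, 12 had differences of queen and workers on the same side of 0. All but 6 of the 14 pairs lay in the run of 9, where each difference was below 0. Over the whole set, 105 of the 148 differences were below 0 and 43 above. Cflo_16295, which passed the limma test, was in no run.

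**Figure D4:**
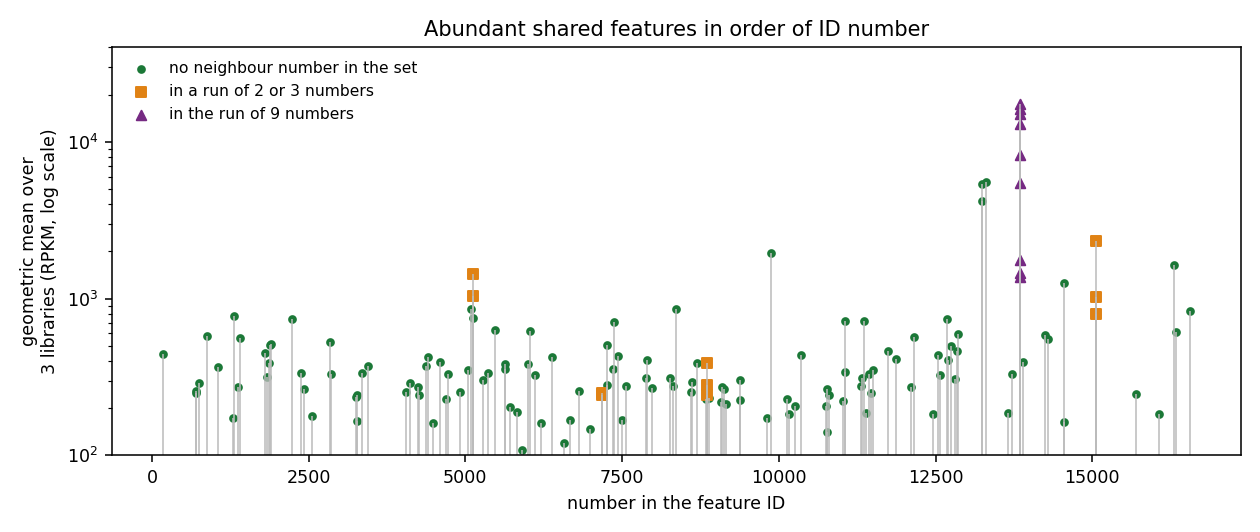
Geometric mean over the 3 libraries (vertical axis, RPKM, log scale) of the 148 abundant shared features in order of the number in their ID (horizontal axis); triangles mark the run of 9, squares the runs of 2 or 3 and dots the 129 features without a neighbour in the set. The run of 9 stands above nearly all others and the remaining features are spread along the whole range of numbers.

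Feature length was not used by the rule, although RPKM is a level per length. A length could be recovered for 124 of the 148 features, and the missing ones were mostly high, since 6 printed digits do not fix whole reads at high counts. The median length was 626 bases (quartiles 446 and 910), against 1621 bases (917 and 2637) for 9296 other numbered tested features. Of the 124, 97 were shorter than 1000 bases (78.2%), against 28.2% of the others. The longest was 2188 bases. The members with a length were therefore mostly short. At up to 0.05 chance matches 135 members had a length, with a median of 653 bases and a longest of 2653 bases. Of these, 75.6% were shorter than 1000 bases, against 28.3% of the others. Reads at a given level rise with length, and whether the missing members were longer was not tested. No test is given, since a short feature needs fewer reads to reach 100 RPKM.

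Within the set, length went with the differences between libraries. The 62 shorter features, of up to 611 bases, had a median queen minus workers difference of -0.47 on the log2 scale, and the 62 longer ones, from 640 bases, one of -0.09. The queen was below both workers in 41 of the shorter and 26 of the longer features, and above both in 4 and 17. The median of worker 1 minus worker 2 was 0.45 in the shorter and 0.13 in the longer features. Across the 124 features Spearman's rho of length was 0.36 with the difference of the queen and worker 1, 0.32 with that of the queen and worker 2 and -0.26 with that of worker 1 and worker 2. With the level itself it was 0.07 in the queen, against -0.38 in worker 1 and -0.20 in worker 2. The comparisons with each worker share the queen and length enters every RPKM value.

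**Figure D5:**
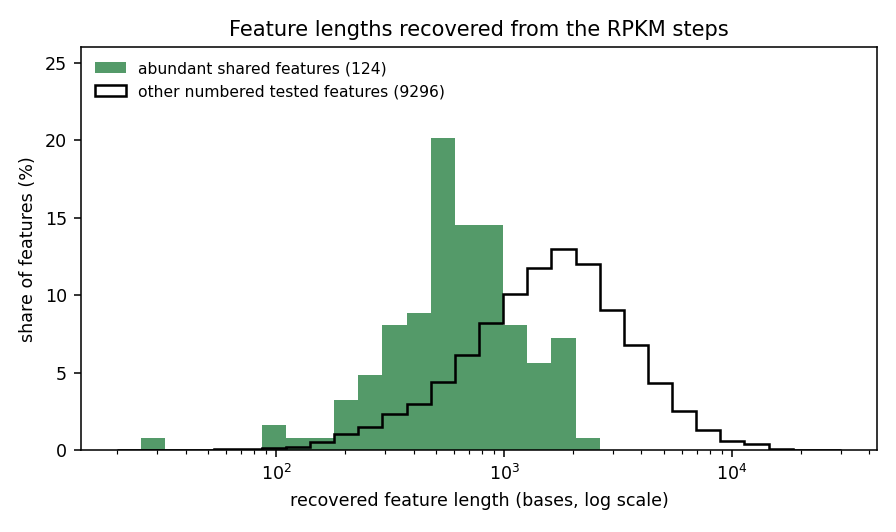
Recovered feature length (horizontal axis, bases, log scale) and the share of features in each bin (vertical axis, percent) for 124 abundant shared features (filled) and 9296 other numbered tested features (line). The filled bars centre on a median of 626 bases and the line on a median of 1621 bases.

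The values of the set rested on many reads. Over the 124 features with recovered reads, the median was 2859 reads in the queen, against 1620 in worker 1 and 2783 in worker 2, at which the counting error of a value is 1.87% in the queen, against 2.48% in worker 1 and 1.90% in worker 2. The fewest recovered were those of Cflo_08857, with a counting error of 7.24% in the queen, against 13.4% in worker 1 and 8.14% in worker 2. Reads without molecular identifiers are not independent molecules, so these errors are lower limits, and they do not hold the difference between one ant and the next.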

How the data were processed

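The deposited table holds RPKM values made by the authors, 1 column per library. The submitters' processing notes name STAR 2.5.0b. For build, annotation, counting tool and filters, nothing is given in the sources used here. Columns were matched to samples by caste, set and replicate number. The features and lists were chosen with earlier results of these data known. Members are numbered IDs at 100 RPKM or more in each library. All 9600 features averaging at least 1 RPKM entered a limma 3.58.1 fit (R 4.3.3) of log2(RPKM + 1), with a variance trend, two-sided tests and Benjamini-Hochberg adjustment. A simulated table used the workers' own differences, centred on 0 and shuffled among features, so it lacked the overall shift between the workers. In it the fit called 83 of 100 features raised by 7 in log2 and 0 of 9400 unchanged ones. It called 29 of 100 that were lowered by 7, or to 0 RPKM where the level did not allow 7. A lowered feature could therefore fall by less than 7. Differences in the set ran from -4.52 to 2.78 as deposited. No raise smaller than 7 was simulated, so how often the fit calls a raise of the set's size was not tested. Replicates are separate ants by their labels, and p-values measure the spread between the 2 workers only.

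Read totals, lengths and reads were recovered from whole-read steps of the values. Whole multiples of a read total fit these steps too. The multiple kept was the one that put most tRNA features within an assumed range of tRNA lengths. Recovered lengths and shares of the read total rest on that choice. A length was the shortest from 20 to 30000 bases at which all 3 libraries had whole reads to the 6 digits printed, kept where at most 0.01 chance matches were expected. The 300 simulated features were drawn at the levels of the 135 members with a length at up to 0.05 chance matches. Members without such a length were not simulated, and the read totals were taken as known. Of the 300, 87.3% came out at their true length, 7.33% at a divisor of it, 0% at any other and 5.33% at none. Among the members themselves, 124 of 148 kept a length. The recovered reads served for depth and counting intervals, and no count model was fitted.

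The named features were the 10 highest by geometric mean, the 4 furthest above and 4 furthest below both workers (on deposited and on median-of-ratios scaled values), the 4 steadiest, the 4 largest gains and losses of rank in the queen, the 4 most unlike between workers, the highest of each run of 3 or more with all of the longest run, and the 3 on either side of the minimum. Other features of runs and their neighbours were named after their values were seen. Alternatives were other minimum levels, pseudocounts, filters, scalings and leaving out each worker. No sequences are given.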

Additional observations from a re-analysis of the deposited data

How the results depend on the processing

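No paired analysis was possible because the queen has 1 library and shares only replicate number 1 with the workers. Leaving out a worker leaves 1 library against 1 and no test. The cause of the changes below was not tested.

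The set of 148 held 268 features at 50 RPKM, 88 at 200 RPKM, 94 after median-of-ratios scaling (80 of them among the 148) and 291 in TPM made from the deposited values (all 148 among them). Without worker 2 or worker 1 in the rule it held 153 or 205. Its share of the queen was 25.3% of numbered features, 26.7% at 50 RPKM, 18.3% at 200 RPKM, 15.6% without the run of 9 and 5.83% of recovered reads. Worker 1 gave 76.2%, 71.4%, 59.8%, 20.8% and 27.3%, and worker 2 47.2%, 50.03%, 37.3%, 23.2% and 12.2% in that order. The share of reads leaves out members without a length, most of the highest among them. Of each library's read total, the same reads were 2.99% in the queen, against 4.50% in worker 1 and 4.34% in worker 2. The rank correlation of the queen and worker 1 was 0.43 at 50 RPKM, 0.55 at 200 RPKM and 0.11 without the run, and Pearson's r was 0.55. For the queen and worker 2 these were 0.63, 0.65, 0.46 and 0.68, and for the workers 0.75, 0.75, 0.66 and 0.84.

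The limma call became 0 of 148 with no filter (5 past an unadjusted p of 0.05), with a minimum of 5 RPKM (16), after median-of-ratios scaling (0), quantile normalization (18), rescaling without the 20 most abundant features (17) and without the trend (6). It was 1 of 148 with either other pseudocount and, chosen after seeing the data, without the RNA classes. The median difference of the queen and the workers was -2.45 after median-of-ratios scaling and -0.97 after rescaling, and from -0.54 to -0.25 without 1 worker. The queen was above both workers in 2 features, between in 6 and below in 140 after median-of-ratios scaling. It was above in 13 and between in 13 after rescaling, and at 2-fold 8 were above, 31 below and 109 neither. Runs numbered 8 with numbers up to 2 apart, 10 at 50 RPKM and 3 at 200 RPKM. The median of worker 1 minus worker 2 was 2.33 after median-of-ratios scaling. The median length was 653 bases with up to 0.05 chance matches, an alternative chosen after seeing the data.

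Differences of named features that turned were, after median-of-ratios scaling, -0.29 for Cflo_01300, -0.61 for Cflo_05630, -1.95 for Cflo_06003, -1.97 for Cflo_06580, -1.83 for Cflo_08857, -1.54 for Cflo_08892, -0.44 for Cflo_09122 and -1.26 for Cflo_13241. After rescaling they were -0.47 for Cflo_06003, -0.49 for Cflo_06580, -0.35 for Cflo_08857 and -0.0597 for Cflo_08892, and after quantile normalization -0.22 for Cflo_06580, 0.0674 for Cflo_09086 and 1.11 for Cflo_13243. Leaving out 1 worker, Cflo_06580 ran from -0.12 (without worker 2) to 0.29, Cflo_08892 from -0.48 (without worker 1) to 1.52 and Cflo_13243 from -0.29 to 0.0674 (without worker 2).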
